A study of Mus musculus with 24 samples.

Results

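The proton pump and the resident proteins of the lysosome were followed at the level of mRNA, ribosome footprints and their ratio in Neuro-2a (N2a) cells, an established mouse neuroblastoma line. The group comprised every listed gene whose symbol begins with Atp6v0 or Atp6v1, the accessory subunit genes Atp6ap1 and Atp6ap2, and 27 named genes for lysosomal membrane proteins, proteases and other hydrolases. It came to 46 genes among the 12759 transcripts listed in the 8 count tables, each gene by 1 transcript, and 44 of them passed the filter on low counts in all tables. The rule itself reads symbols and no measured value, but the members were chosen with earlier results of these data known. Shares over all transcripts are therefore given beside the group as a description. The 2 genes that did not pass were Atp6v0a4, at no more than 0.23 CPM (counts scaled to the library's total) in any of the KO libraries that list it, and Atp6v1g2, at no more than 0.77 CPM of mRNA.

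The ctrl cells had received the empty Cas9 vector and the KO cells Cas9 with guides against 3 exons of Eif4e3, which encodes the cap-binding protein eIF4E3, and both were selected with puromycin. Both genotypes were kept for 2 h in 250 nM Torin1, an inhibitor of the kinase mTOR, or in an equal volume of its solvent DMSO. RNA-seq and ribo-seq were made from each of the 4 conditions, and the labels give each of the 3 replicate numbers as a separate passage of the cells. The ctrl and KO cells are 1 engineered population each, so a difference between them cannot be told apart from a difference between those populations.

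Lysosomal hydrolases are made at the endoplasmic reticulum, and many are carried to the lysosome by the mannose 6-phosphate route. The vacuolar ATPase acidifies the organelle with a membrane sector, V0, through which protons pass, and a cytosolic sector, V1, which splits ATP. The lysosome surface is where mTORC1 is switched on by amino acids, and the transcription factor TFEB, which mTORC1 keeps in the cytoplasm, binds the CACGTG motif in the promoters of many lysosomal genes.

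Total counts ran from 17048192 to 28911595 in the 12 RNA-seq libraries and from 669244 to 5285876 in the 11 ribo-seq libraries. Of the ctrl DMSO ribo-seq libraries, replicates 1 and 3 were used, and replicate 3 was the shallowest of all. Replicate 2 of the RNA-seq gave the highest mRNA value of its group for 32 of the 44 members in ctrl DMSO and likewise for 32 of 44 in KO DMSO. Eif4e3 itself was at 16.1 ± 3.59 CPM of mRNA (mean ± SD, n = 3) in ctrl DMSO and at 3.85 ± 1.06 in KO DMSO, a log2 change of -2.05 ± 0.24 (SE; edgeR quasi-likelihood test, Benjamini-Hochberg adjusted p = 0.0312). The labelled cell type was met by its markers, since 8 of 9 noradrenergic neuroblast markers were listed, with a summed mRNA level between 942 and 1186 CPM. Among them Dbh, the enzyme that makes noradrenaline, had fewer footprints in KO than in ctrl cells, by -1.10 ± 0.17 in DMSO (adjusted p = 0.0132) and -1.57 ± 0.20 in Torin1 (adjusted p = 4.61e-07), and what this shift has to do with the lysosomal genes was not tested. Of 8 macrophage or microglia markers only Cd68 was listed (1.30 to 4.07 CPM), and of 6 fibroblast markers 3 were (1.26 to 3.05 CPM in sum).

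In ctrl cells under DMSO, mRNA levels per kilobase of coding sequence (RPKM) were highest for Lgmn, the asparaginyl protease legumain, at 662 ± 69.9 (SD, n = 3). Lamp1, the abundant glycoprotein of the lysosomal membrane, followed at 528 ± 44.0, Psap, the precursor of the saposins, at 502 ± 37.2 and Ctsd, the aspartyl protease cathepsin D, at 467 ± 67.7. Neighbours in this order lay within their spread of one another from Lamp1 down to Ctsd. The lowest of the tested members was Idua, which removes iduronic acid from glycosaminoglycans, at 2.47 ± 0.20.

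Translational efficiency (TE), the footprint CPM divided by the mRNA CPM, was spread widely over the members in ctrl DMSO cells. Its median over 10443 transcripts was 0.93. The membrane subunits Atp6v0e at 5.00 and Atp6v0c, the proton-carrying ring subunit, at 4.55, and the accessory subunit Atp6ap2 (the prorenin receptor) at 4.58 were highest, at percentiles 98.8, 98.3 and 98.4 of all transcripts. The lowest were Hexa, the alpha subunit of beta-hexosaminidase, at 0.57, and 2 membrane proteins, the calcium channel Mcoln1 at 0.66 and Cln3 at 0.66. A ratio of means carries no replicate error, and the ctrl DMSO footprint mean rests on 2 libraries.

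**Figure D1:**
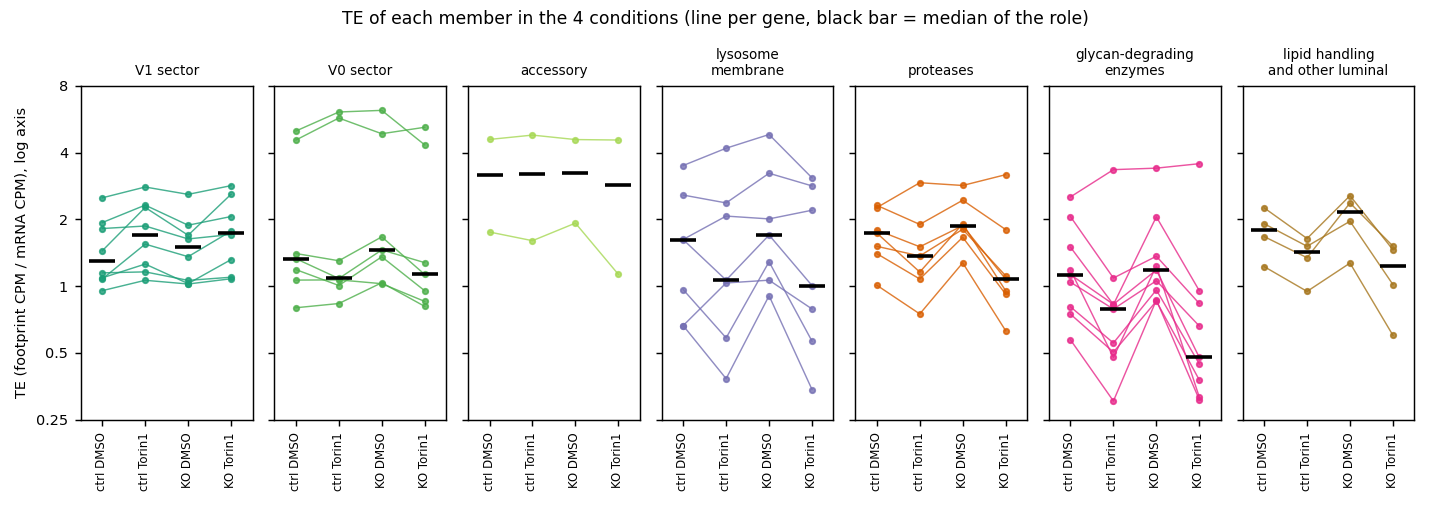
Translational efficiency of the 44 tested members in the 4 conditions, 1 line per gene on a log axis, grouped by role, with the median of each role as a black bar. Most lines of the glycan-degrading enzymes and proteases drop from DMSO to Torin1 while those of the V1 sector do not, and Atp6v0e, Atp6v0c and Atp6ap2 stay above 4 throughout.

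No mRNA of the group passed the test for a change with Torin1. In ctrl cells 0 of 44 members passed an adjusted p of 0.05 in edgeR's quasi-likelihood test, where 2.73% of the 10958 transcripts tested were called, and in KO cells 0 of 44 did, where 9.97% of 11004 were. At an unadjusted p under 0.05 the counts were 3 and 4 of 44, and DESeq2 called 1 and 2. Leaving out replicate 3 of the ctrl DMSO RNA-seq gave 1 call in ctrl cells, and leaving out replicate 2 of the KO DMSO RNA-seq gave 3 in KO cells. The median log2 change of the members was -0.05 in ctrl and -0.02 in KO cells, against 0.00 for all transcripts in both. In ctrl cells 29 of 44 estimates were below 0, and 16 of 44 without replicate 2 of the ctrl DMSO RNA-seq, where the median was 0.04.

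With the passage as a block, 1 member was called in ctrl cells, where 12.1% of all transcripts were, and 2 in KO cells, where 16.3% were. The member in ctrl cells was Atp6v0e, whose mRNA stood at 29.0, 33.1 and 27.4 CPM in DMSO and at 19.3, 21.9 and 23.1 CPM in Torin1, with no overlap (blocked log2 change -0.48 ± 0.15, adjusted p = 0.0300). Those in KO cells were Gla, alpha-galactosidase A, at 0.46 ± 0.13 (adjusted p = 0.0293), and Atp6v0a2, a large membrane subunit, at -0.35 ± 0.11 (adjusted p = 0.0417).

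**Figure D2:**
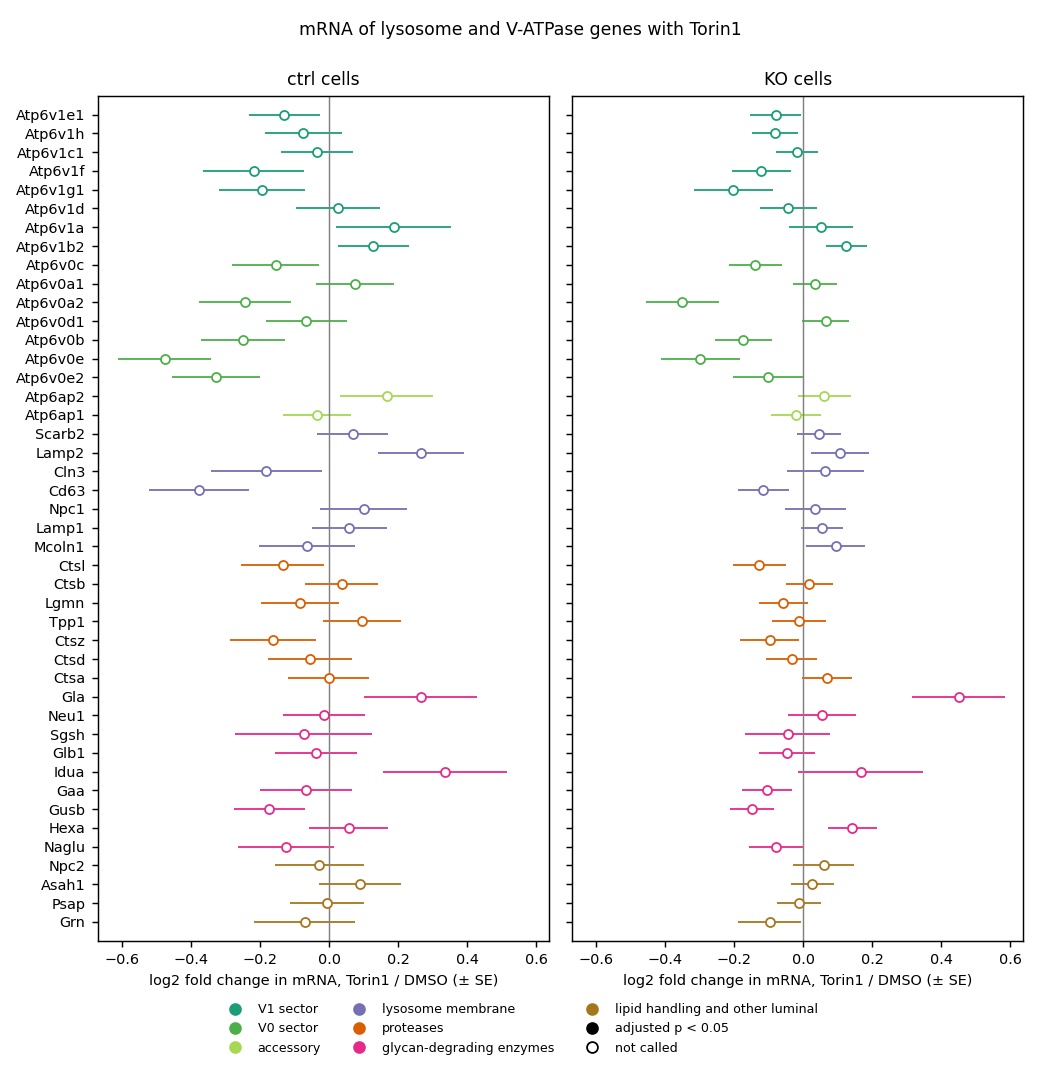
Log2 fold change in mRNA between Torin1 and DMSO for the 44 tested members, in ctrl cells (left) and KO cells (right), with SE bars; filled points would be members past an adjusted p of 0.05. All points are open, and the estimates lie between -0.48 and 0.45.

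The CACGTG motif was counted in the promoters because the mRNAs of its holders could be read beside those of the rest. Promoter windows, from 250 bases before to 50 after the annotated start (RefSeq, GRCm38.p6), were given for 38 of the 46 genes. Of these, 16 genes (42.1%) held CACGTG, a palindrome and so the same on both strands, against 12.3% of the genes tested in both assays and 8.09% of all 27025 genes of the table. Shares by role ran from 0 of 2 accessory subunits and 0 of 3 lipid-handling and other luminal proteins to 4 of 6 proteases and 5 of 9 glycan-degrading enzymes. The stretches below are 30 bases around the motif, in capitals, of members whose footprints are described later, at the given position of the motif's first base relative to the start.
Lamp1 (chr8:13159088-13159117, plus strand, -61): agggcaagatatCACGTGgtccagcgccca
Mcoln1 (chr8:3500436-3500465, plus strand, -71): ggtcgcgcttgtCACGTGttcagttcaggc
Naglu (chr11:101070009-101070038, plus strand, -73): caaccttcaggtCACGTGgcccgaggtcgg
Gaa (chr11:119267811-119267840, plus strand, -140): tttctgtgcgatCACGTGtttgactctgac
Ctsd (chr7:142387908-142387937, minus strand, -98): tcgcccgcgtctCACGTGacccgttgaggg
Glb1 (chr9:114401018-114401047, plus strand, -48): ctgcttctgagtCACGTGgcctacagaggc
Atp6v1a (chr16:44139373-44139402, minus strand, -131): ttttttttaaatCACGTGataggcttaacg

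All 16 genes with the motif and 20 of the 22 others were tested. The median log2 change in mRNA with Torin1 was -0.07 for the holders and -0.02 for the others in ctrl cells, and -0.04 and -0.02 in KO cells, with none called in either set. A match of letters only describes the window. Some genes outside the group were called for mRNA by the same test, where 2.73% of all transcripts were called in ctrl cells and 9.97% in KO cells. Those named here all rose and were picked from longer lists of related genes, and the rest of those lists is not given in full. Other genes of the lists had lower mean mRNA with Torin1 in ctrl cells. Rnasek went from 83.6 to 62.3 CPM and Lamtor2 from 47.0 to 34.7 CPM, and their test results are not given here. Flcn, a regulator of the Rag GTPases at the lysosome surface, rose by 0.92 ± 0.13 in ctrl cells (adjusted p = 0.00242) and by 0.69 ± 0.09 in KO cells (adjusted p = 0.000496). Tcirg1, another large V0 subunit that the symbol rule leaves out, rose by 0.54 ± 0.11 (adjusted p = 0.00881) and Ctns, the cystine exporter, by 0.49 ± 0.13 (adjusted p = 0.0391) in KO cells.

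More members were called for footprints than for mRNA. In KO cells Torin1 lowered footprints of 28 of 44 members and raised those of 3, where 22.1% of 10822 transcripts were lower and 18.5% higher, and in ctrl cells it lowered 12 and raised 2, where 9.93% and 5.69% of 10693 were called. Members outside the vacuolar ATPase made up 22 of the 28 and 11 of the 12. None of the 8 V1 subunits tested was lower in either genotype. The ctrl count was 2 without replicate 1 of the ctrl DMSO ribo-seq, 7 without replicate 2 and 6 without replicate 3 of the ctrl Torin1 ribo-seq. The members' median log2 change in footprints was -0.70 in KO and -0.25 in ctrl cells, against 0.02 for all transcripts in both. These are changes relative to the other transcripts, since ribo-seq counts sum to the library, and in bulk libraries less signal per cell and fewer cells with signal cannot be told apart. Without TMM scaling the median of all transcripts was 0.26 in KO and 0.23 in ctrl cells, and the members called became 21 lower and 8 higher in KO cells and 7 lower and 7 higher in ctrl cells. The share of all transcripts called without TMM scaling is not given here, so these counts cannot be set against it.

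TE, tested as the interaction of assay and treatment, gave the same split. In KO cells TE was lower for 26 members and higher for 3, where 17.8% of 10535 transcripts were lower and 10.5% higher. In ctrl cells it was lower for 4 and higher for 1, where 4.32% and 0.393% of 10432 were called. The 4 and the 1 were also called in KO cells, in the same direction. With the passage as a block 3 members were lower in ctrl cells and 0 higher, where 4.04% and 0.336% were called. The ctrl total of 5 became 1 without replicate 1 of the ctrl DMSO ribo-seq, 10 without replicate 2 of the ctrl DMSO RNA-seq, 2 or 3 without any 1 of the ctrl Torin1 RNA-seq libraries, and 3 without replicate 2 or 3 of the ctrl Torin1 ribo-seq. Without TMM scaling, which set the median of all transcripts at 0.22 in KO and 0.15 in ctrl cells, the counts were 19 lower and 5 higher, and 3 lower and 2 higher. The shares of all transcripts called for TE under that setting are not given either. By sector in KO cells, 21 of 27 members outside the pump, 5 of 9 V0 and accessory subunits and 0 of 8 V1 subunits had lower TE, with median log2 changes of -0.83, -0.37 and 0.12. Without TMM scaling these became 18 of 27, 1 of 9 and 0 of 8, with medians of -0.60, -0.15 and 0.34, and the calls lost were those of Neu1, Idua, Ctsb, Atp6v0b, Atp6v0e, Atp6v0d1 and Atp6v0e2.

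**Figure D3:**
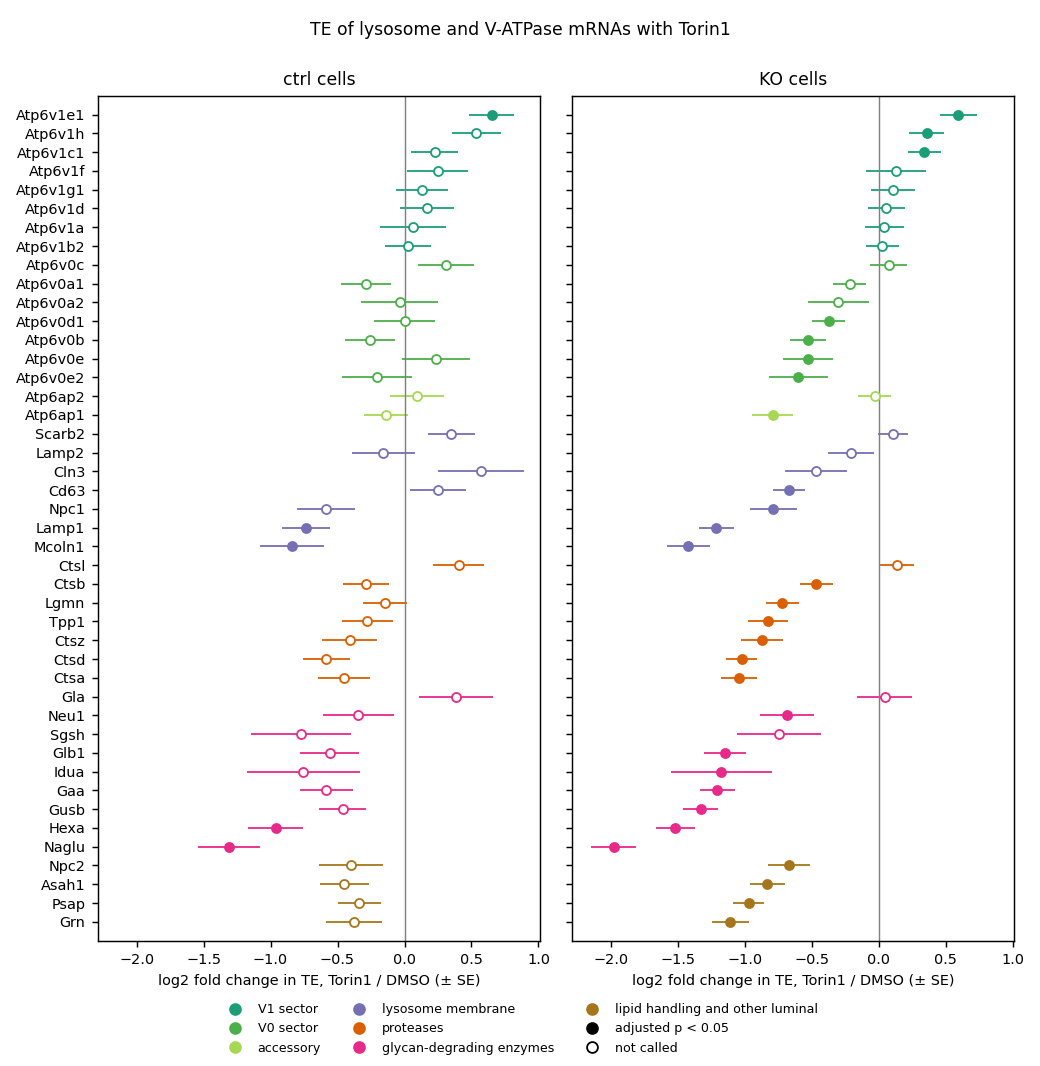
Log2 fold change in TE between Torin1 and DMSO for each of the 44 tested members, in ctrl cells (left) and KO cells (right), with SE bars and filled points for an adjusted p under 0.05. The filled points are 26 lower and 3 higher in KO cells and 4 lower and 1 higher in ctrl cells, with Naglu lowest and Atp6v1e1 highest in both.

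The glycan-degrading enzymes held the largest declines. Naglu, which removes N-acetylglucosamine from heparan sulphate, had footprints of 90.0 and 90.7 CPM in ctrl DMSO and 31.8, 31.5 and 36.9 in ctrl Torin1, and of 77.4, 79.9 and 86.8 in KO DMSO and 20.3, 20.6 and 18.3 in KO Torin1. Every Torin1 library lay below every DMSO library, and the KO Torin1 values lay below the ctrl Torin1 values as well. Its mRNA was 76.5 ± 12.8 CPM in ctrl DMSO and 70.0 ± 4.93 in ctrl Torin1, and 66.0 ± 3.56 and 62.3 ± 2.59 in KO cells (SD, n = 3), ranges that overlapped within each genotype. TE changed by -1.31 ± 0.23 in ctrl cells (adjusted p = 0.000929) and by -1.98 ± 0.17 in KO cells (adjusted p = 9.09e-10), and no alternative setting or left-out library ended either call.

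Gusb, beta-glucuronidase, stood at 244 and 219 footprint CPM in ctrl DMSO, at 164, 146 and 142 in ctrl Torin1, at 205, 206 and 193 in KO DMSO and at 79.3, 66.6 and 73.7 in KO Torin1. The 4 groups did not overlap, and KO Torin1 was the lowest. Footprints changed by -0.63 ± 0.14 in ctrl (adjusted p = 0.00551) and by -1.48 ± 0.12 in KO cells (adjusted p = 1.19e-11), and TE by -1.33 ± 0.13 in KO cells (adjusted p = 1.43e-08). In ctrl cells TE was at -0.46 ± 0.18 (adjusted p = 0.171).

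For Hexa the footprint values were 104 and 82.6 CPM in ctrl DMSO, 49.2, 53.7 and 51.6 in ctrl Torin1, 126, 119 and 127 in KO DMSO, and 41.4, 50.3 and 54.3 in KO Torin1. Torin1 and DMSO libraries were apart in both genotypes, while the Torin1 libraries of ctrl and KO cells overlapped. TE changed by -0.96 ± 0.20 in ctrl (adjusted p = 0.00563) and by -1.52 ± 0.15 in KO cells (adjusted p = 1.16e-08). Without replicate 1 of the ctrl DMSO ribo-seq the ctrl estimate was -0.73 and did not pass (adjusted p = 0.175).

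Gaa, which breaks down lysosomal glycogen, had 428 and 348 footprint CPM in ctrl DMSO, 253, 248 and 248 in ctrl Torin1, 368, 406 and 444 in KO DMSO and 152, 167 and 181 in KO Torin1. Torin1 libraries were the lower ones in both genotypes, with no overlap, and its TE in KO cells changed by -1.20 ± 0.13 (adjusted p = 1.07e-07). Glb1, beta-galactosidase, went from 88.1, 95.6 and 87.8 to 37.0, 37.8 and 46.9 CPM in KO cells (TE -1.14 ± 0.16, adjusted p = 4.59e-06), and from 83.1 and 77.7 to 59.3, 57.8 and 44.3 in ctrl cells. Neu1 (sialidase) and Idua also had lower TE in KO cells, by -0.69 ± 0.20 (adjusted p = 0.0125) and -1.17 ± 0.38 (adjusted p = 0.0210). Idua had no more than 12.2 footprint CPM in any library, and its call was lost in 5 of 16 alternatives. Sgsh and Gla were not called for TE. The Gla footprints were higher with Torin1 in KO cells, by 0.50 ± 0.16 (adjusted p = 0.0137), a call lost without replicate 1 or without replicate 2 of the KO Torin1 ribo-seq.

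Of the 7 proteases, 6 had lower TE in KO cells and none passed in ctrl cells. Ctsd had 1025 and 971 footprint CPM in ctrl DMSO, 624, 634 and 666 in ctrl Torin1, 1026, 1015 and 1052 in KO DMSO and 489, 498 and 522 in KO Torin1. The DMSO libraries of both genotypes lay together and the Torin1 libraries apart from them, those of the KO lowest. Its TE in KO cells changed by -1.02 ± 0.12 (adjusted p = 2.01e-07) and in ctrl cells by -0.59 ± 0.18 (adjusted p = 0.0614). The annotation places another coding gene, Gm49369, over Ctsd on the same strand, so reads of the pair cannot be told apart.

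Ctsa, the protective carboxypeptidase cathepsin A, fell in KO cells from 197, 214 and 215 to 105, 99.6 and 120.0 footprint CPM (TE -1.04 ± 0.13, adjusted p = 1.14e-06). In ctrl cells its footprints were 209 and 175 in DMSO and 135, 139 and 153 in Torin1, also without overlap. Ctsz, a carboxypeptidase of the papain family, had 207 and 170.0 in ctrl DMSO, 145, 127 and 116 in ctrl Torin1, 195, 188 and 195 in KO DMSO and 115, 80.0 and 104 in KO Torin1 (TE in KO cells -0.87 ± 0.16, adjusted p = 0.000138). The tripeptidyl peptidase Tpp1, Lgmn and Ctsb had lower TE in KO cells by -0.83 ± 0.15, -0.72 ± 0.12 and -0.46 ± 0.12. Ctsl, the endopeptidase cathepsin L, was the protease that was not called, at 0.13 ± 0.13, and its footprints overlapped between Torin1 and DMSO in KO cells.

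All 4 lipid-handling and other luminal proteins had lower TE in KO cells. Grn, the precursor of progranulin's peptides, had 294 and 278 footprint CPM in ctrl DMSO, 215, 216 and 201 in ctrl Torin1, 275, 273 and 281 in KO DMSO and 113, 121 and 131 in KO Torin1. Its KO Torin1 libraries were the lowest, ctrl Torin1 came next, and the DMSO libraries of both genotypes lay together above them. Psap had 1654 and 1556 in ctrl DMSO, 1256, 1312 and 1223 in ctrl Torin1, 1578, 1634 and 1517 in KO DMSO and 733, 861 and 834 in KO Torin1, with the groups in the same order. TE in KO cells changed by -1.11 ± 0.14 for Grn (adjusted p = 1.14e-06) and by -0.97 ± 0.12 for Psap (adjusted p = 4.83e-07), and by -0.83 ± 0.13 for Asah1 (acid ceramidase) and -0.67 ± 0.16 for the cholesterol carrier Npc2.

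Of the 7 lysosomal membrane proteins, 4 had lower TE in KO cells. Lamp1 had 698 and 546 footprint CPM in ctrl DMSO, 375, 419 and 383 in ctrl Torin1, 795, 763 and 926 in KO DMSO and 367, 333 and 430.3 in KO Torin1, while its mRNA averaged between 643 and 671 CPM in all 4 conditions. Torin1 and DMSO libraries were apart in each genotype, and the Torin1 libraries of the genotypes overlapped. TE changed by -0.73 ± 0.18 in ctrl (adjusted p = 0.0167) and by -1.21 ± 0.13 in KO cells (adjusted p = 9.72e-08). The ctrl call was lost without replicate 1 of the ctrl DMSO ribo-seq, at -0.53.

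Mcoln1 had 83.3 and 69.6 footprint CPM in ctrl DMSO, 43.4, 36.5 and 46.5 in ctrl Torin1, 90.1, 88.3 and 107 in KO DMSO and 37.9, 40.2 and 36.6 in KO Torin1. The split by drug was complete in both genotypes. TE changed by -1.42 ± 0.16 in KO cells (adjusted p = 2.08e-07) and by -0.84 ± 0.24 in ctrl cells (adjusted p = 0.0465), where the call was lost in 11 of 15 alternatives. The cholesterol transporter Npc1 and the tetraspanin Cd63 were lower in KO cells, by -0.79 ± 0.18 and -0.67 ± 0.12 on the log2 TE scale. Lamp2, Cln3 and Scarb2, the receptor that carries glucocerebrosidase, were not called.

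**Figure D4:**
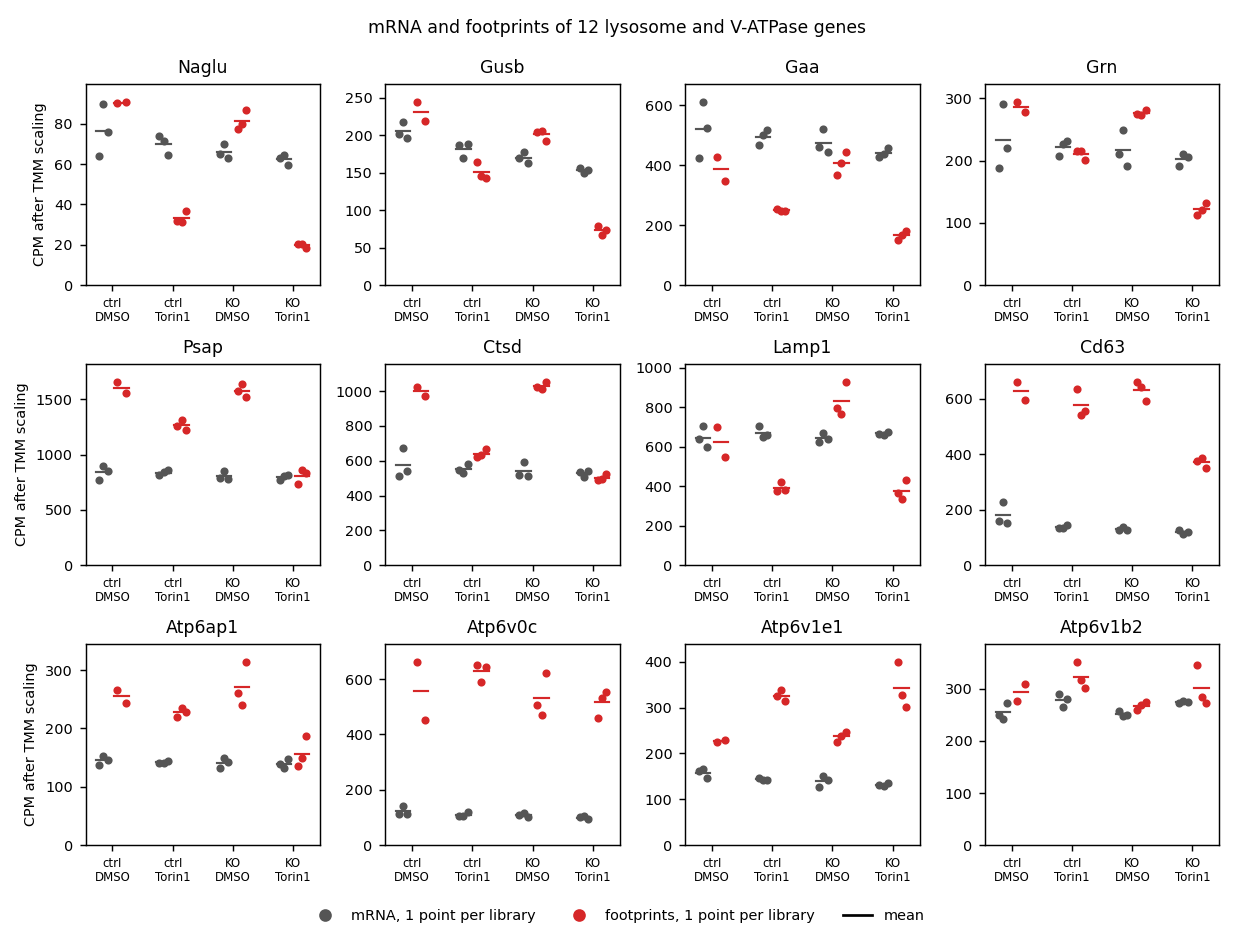
mRNA (grey) and footprints (red) of 12 members in CPM after TMM scaling, 1 point per library with the mean as a bar, in the 4 conditions; each vertical axis starts at 0. Red points of Naglu, Gusb, Gaa, Grn, Psap, Ctsd and Lamp1 drop with Torin1 while the grey points move less, and Atp6v1e1 footprints rise.

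In the V1 sector no subunit was called lower. All 8 tested subunits had TE estimates above 0 in both genotypes, from 0.02 to 0.65 in ctrl and from 0.03 to 0.59 in KO cells, with 1 and 3 called higher. Atp6v1e1, a stalk subunit, had 226 and 228 footprint CPM in ctrl DMSO, 325, 338 and 313 in ctrl Torin1, 226, 238 and 247 in KO DMSO and 399, 327 and 301 in KO Torin1. All Torin1 libraries lay above all DMSO libraries, and TE rose by 0.65 ± 0.17 in ctrl (adjusted p = 0.0242) and by 0.59 ± 0.14 in KO cells (adjusted p = 0.00185). The ctrl call was lost in 6 of 15 alternatives.

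Atp6v1h and Atp6v1c1, subunits that regulate the joining of V1 to V0, had higher TE in KO cells by 0.36 ± 0.13 (adjusted p = 0.0411) and 0.34 ± 0.12 (adjusted p = 0.0415), and each call was lost in 9 of 16 alternatives. The footprints of Atp6v1h were 196 and 220.2 CPM in ctrl DMSO, 272, 274 and 305 in ctrl Torin1, 224, 254 and 289 in KO DMSO and 289.5, 327 and 327 in KO Torin1, with Torin1 above DMSO in each genotype. Atp6v1b2, a catalytic-ring subunit, showed no called change, with TE at 0.02 ± 0.17 in ctrl and 0.03 ± 0.12 in KO cells. Atp6v1a, the subunit that binds and splits ATP, had 207 and 256 footprint CPM in ctrl DMSO, 239, 294 and 278 in ctrl Torin1, 217, 259 and 277 in KO DMSO and 255, 288 and 273 in KO Torin1, and all of these groups overlapped.

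In the V0 sector 4 of 7 subunits had lower TE in KO cells, but 0 of 7 without TMM scaling, and 0 of 7 were lower in ctrl cells. In ctrl cells the sector's median log2 change with Torin1 was -0.24 for mRNA, with 6 of 7 estimates below 0. It was -0.25 for footprints and -0.04 for TE there, so the footprint median lay close to that of mRNA. In KO cells the medians were -0.14 for mRNA, -0.65 for footprints and -0.37 for TE. Atp6v0b, a ring subunit, had 291 and 253 footprint CPM in ctrl DMSO, 203, 189 and 189.6 in ctrl Torin1, 275, 245 and 259 in KO DMSO and 164, 172 and 148 in KO Torin1. Torin1 libraries were below DMSO libraries in both genotypes, and TE in KO cells changed by -0.53 ± 0.13 (adjusted p = 0.00465), to -0.30 and an adjusted p of 0.0750 without TMM scaling. Atp6v0e had 174 and 125 in ctrl DMSO, 161, 135 and 95.9 in ctrl Torin1, 155, 133 and 191 in KO DMSO and 94.7, 98.7 and 77.7 in KO Torin1, apart only in KO cells. Its TE change there of -0.53 ± 0.19 (adjusted p = 0.0367) and those of Atp6v0d1 (-0.37 ± 0.13) and Atp6v0e2 (-0.60 ± 0.22) were lost in 7, 8 and 9 of 16 alternatives.

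Atp6v0c kept its footprints, with 661 and 453 CPM in ctrl DMSO, 652, 589 and 645 in ctrl Torin1, 505, 470.1 and 621 in KO DMSO and 459, 533 and 554 in KO Torin1. All groups overlapped for Torin1 against DMSO, and the TE change in KO cells was 0.07 ± 0.14. The accessory subunits differed from each other. Atp6ap1, a chaperone-like subunit of the assembling pump, fell in KO cells from 261, 239.6 and 314 to 135, 149 and 187 footprint CPM (TE -0.79 ± 0.16, adjusted p = 0.000393), while Atp6ap2 had 274, 271 and 291 in DMSO and 270.1, 282 and 315 in Torin1 (TE -0.03 ± 0.12).

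In DMSO, the loss of eIF4E3 left all 3 readouts of the group without a call, at 0 of 44 members for mRNA, footprints and TE. Across all transcripts 0.0183%, 0.0279% and 0% were called, and at an unadjusted p under 0.05 the members counted 5, 3 and 2. DESeq2 called 0 in each. The members' median log2 change was -0.09 for mRNA, 0.07 for footprints and 0.16 for TE. The estimates of Lamp1 (0.40 ± 0.16, adjusted p = 0.575) and Lamp2 (0.80 ± 0.20, adjusted p = 0.451) for footprints were not called, although for both genes every KO library lay above every ctrl library. That held for 12 of the 44 members, and for 5 every KO library lay below, with 2 ctrl against 3 KO libraries. The share over all transcripts was not counted, so these counts cannot be read as a trait of the group. With the passage as a block the mRNAs of Cd63 (-0.42 ± 0.10, adjusted p = 0.00326), Lamp2 (0.54 ± 0.12, adjusted p = 0.00194) and Atp6v1a (0.30 ± 0.10, adjusted p = 0.0426) were called, where 7.93% of all transcripts were.

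Under Torin1 several members differed between the genotypes. Footprints were lower in KO than in ctrl cells for 12 of 44 members and higher for 1, where 4.01% of 10792 transcripts were lower and 2.02% higher, and TE was lower for 7 and higher for 0, where 2.46% and 0.533% of 10509 were called. Of the 7, 6 lay outside the pump and the other was Atp6ap1. The footprint count was 8 without replicate 2 of the KO Torin1 ribo-seq, and the TE count 4 without that library, replicate 1 of the same group or replicate 3 of the KO Torin1 RNA-seq. The mRNAs of Ctsl and Gusb were lower, by -0.28 ± 0.06 (adjusted p = 0.0290) and -0.24 ± 0.05 (adjusted p = 0.0319), and that of Lamp2 higher, where 0.954% of 11007 transcripts were lower and 1.01% higher, and these calls were lost in 7, 6 and 4 of 11 alternatives, with 0 or 1 member called whichever library was left out. With the passage as a block 8 members were lower and 1 higher, where 4.58% and 4.88% were called.

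Gusb had the largest difference, with footprints at -1.04 ± 0.13 (adjusted p = 3.32e-07) and TE at -0.79 ± 0.12 (adjusted p = 0.000435). Among members called for TE, next came Grn at -0.67 ± 0.11 (adjusted p = 0.00143) and Psap at -0.58 ± 0.10 (adjusted p = 0.00111), while Naglu, at -0.59 ± 0.19, was not called (adjusted p = 0.0853). The footprint values of Gusb, Grn and Psap, given above, did not overlap between the Torin1 libraries of the genotypes, whereas in DMSO those of Grn and Psap did. Gusb was already without overlap in DMSO, at 244 and 219 against 205, 206 and 193 CPM, though not called there (-0.22 ± 0.15).

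Cd63 had 659 and 594 footprint CPM in ctrl DMSO, 634, 542 and 555 in ctrl Torin1, 659.8, 642 and 592 in KO DMSO and 376, 387 and 349.8 in KO Torin1. Only the KO Torin1 libraries stood apart, below all others, and TE differed between the genotypes in Torin1 by -0.44 ± 0.11 (adjusted p = 0.0182). Atp6ap1 had 266 and 244 in ctrl DMSO and 219, 235 and 229 in ctrl Torin1, above its 3 KO Torin1 values (TE -0.52 ± 0.12, adjusted p = 0.0180). Tpp1 had 149 and 125 in ctrl DMSO, 111, 128 and 129 in ctrl Torin1, 129.6, 151 and 159 in KO DMSO and 73.2, 91.0 and 85.7 in KO Torin1, the last again apart. Its TE difference of -0.50 ± 0.14 (adjusted p = 0.0487) was lost in 10 of 16 alternatives, and that of Gaa, -0.42 ± 0.11 (adjusted p = 0.0278), in 5 of 16.

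Lgmn, with 1083, 1118 and 1149 footprint CPM in ctrl Torin1 and 829, 836 and 886 in KO Torin1, was among those lower for footprints (-0.39 ± 0.09, adjusted p = 0.00621) and not for TE (-0.30 ± 0.09, adjusted p = 0.0723), as were Naglu, Ctsd, Ctsa and Atp6v0e. The TE difference of Lgmn was called with the passage as a block (-0.30 ± 0.09, adjusted p = 0.0456) and by DESeq2 (adjusted p = 0.00686), and that of Ctsd by DESeq2 (-0.28 ± 0.09, adjusted p = 0.0261). Lamp2, a membrane protein needed for chaperone-mediated autophagy, was the member that was higher. Its footprints were 82.6 and 64.8 CPM in ctrl DMSO, 69.4, 96.2 and 79.5 in ctrl Torin1, 109.8, 122 and 168 in KO DMSO and 132, 118 and 127 in KO Torin1, every KO library above every ctrl library. In Torin1 they differed by 0.61 ± 0.13 (adjusted p = 0.00295) and the mRNA by 0.37 ± 0.07 (adjusted p = 0.0213), with TE at 0.23 ± 0.14 (adjusted p = 0.443).

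**Figure D5:**
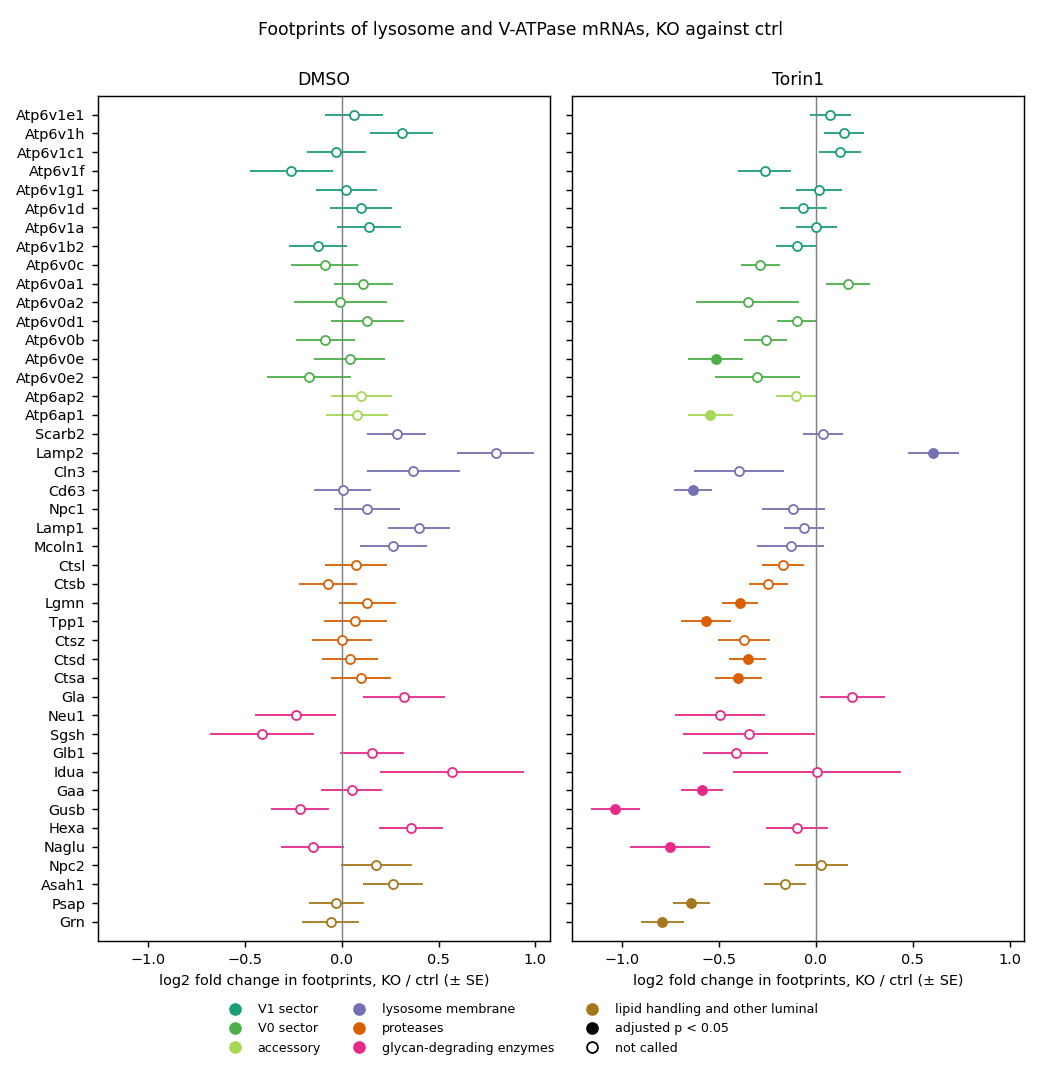
Log2 fold change in footprints between KO and ctrl cells for the 44 tested members, in DMSO (left) and Torin1 (right), with SE bars and filled points for an adjusted p under 0.05. No point is filled in DMSO, and in Torin1 12 are filled below 0, Gusb lowest, and 1 above, Lamp2.

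Whether Torin1 acted differently in the genotypes was tested as the interaction, and 0 of 44 members passed for mRNA, footprints or TE, where 0% of 11073, 0.113% of 10662 and 0% of 10443 transcripts were called. The larger number of calls in KO cells is therefore not shown to be a difference between the genotypes. The ctrl arm also held fewer ribo-seq libraries. In simulated data this interaction test found 87 of 200 true log2 changes of 1 for footprints and 44 for TE. That planted change was larger in size than every member's footprint estimate and than both medians below. How often changes of the sizes seen here would be found was not simulated. Interaction estimates were below 0 for 39 of 44 members for footprints and for 39 of 44 for TE, with medians of -0.26 and -0.33, against -0.02 and -0.01 for all transcripts. The members' median TE difference of KO against ctrl cells was 0.16 in DMSO and -0.15 in Torin1, and for footprints 0.07 and -0.25. The interaction estimates thus hold the difference in DMSO, which rests on 2 ctrl ribo-seq libraries, as well as the one in Torin1. At an unadjusted p under 0.05, 16 of 44 members (36.4%) counted for footprints and 16 of 44 for TE, where 6.86% and 5.75% of all transcripts did.

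With the passage as a block, 3 members passed for footprints, where 0.328% of all transcripts did. They were Gusb (-0.86 ± 0.17, adjusted p = 0.0187), Grn (-0.73 ± 0.16, adjusted p = 0.0379) and Cd63 (-0.65 ± 0.15, adjusted p = 0.0449). DESeq2 called these 3 and Psap for footprints, and Gusb and Psap for TE. The share of all transcripts that DESeq2 called is not given here, so its calls have no background beside them. In the unblocked fit Gusb was at -0.82 ± 0.19 (adjusted p = 0.0599).

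Other genes of the organelle and its regulators were counted by the same tests. Of 32 further lysosome genes tested, 15 had lower TE with Torin1 in KO cells and 0 higher (median -0.66), and 1 was lower in ctrl cells. They were led by Clcn7, the chloride-proton exchanger, at -1.27 ± 0.16 (adjusted p = 1.58e-06), and Arsb, a sulphatase, at -1.19 ± 0.17 (adjusted p = 6.27e-06). In the mannose 6-phosphate and sorting route 3 of 5 genes were lower in KO cells, led by the sorting receptor Sort1 at -2.06 ± 0.17 (adjusted p = 6.28e-10), which was also lower in ctrl cells at -2.09 ± 0.25 (adjusted p = 1.23e-05). Of 10 genes listed for assembly and regulation of the pump, Tcirg1 (-2.06 ± 0.28, adjusted p = 3.39e-06) and Rnasek (-0.67 ± 0.20, adjusted p = 0.0146) were lower in KO cells. That is close to the 17.8% of all transcripts called lower. The TE of others on this list went both ways with Torin1 in KO cells, from 0.94 to 1.25 for Wdr7 and from 3.21 to 2.45 for Vma21. Tcirg1 is itself a V0 subunit and is not in the V0 counts above.

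The 11 genes that dock mTORC1 at the lysosome went mostly the other way, with 5 higher and 1 lower in KO cells (median 0.21). Flcn rose by 1.08 ± 0.20 (adjusted p = 0.000167), the Rag GTPase gene Rraga by 0.66 ± 0.16 (adjusted p = 0.00369) and Lamtor3, a scaffold subunit, by 0.64 ± 0.16 (adjusted p = 0.00491). These lists are described by their counts beside the 17.8% and 10.5% of all transcripts called lower and higher.

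The mRNA leaders of the members were read from the annotation (GENCODE M21, GRCm38). The 5′ TL (transcript leader) had a median of 173 nt over 43 of the 44 tested members, the transcript of Gla having no match there, and 173 nt over 10406 tested transcripts, with a median GC content of 65.5% and 65.2%. A start with C and 4 further pyrimidines, as in 5′ TOP mRNAs, was annotated for 1 member, Naglu (2.33%), and for 2.28% of all transcripts. The GENCODE start of Naglu, chr11:101070012, lies upstream of the motif printed above, so it differs from the RefSeq start used for the promoter. The same holds for Ctsd (chr7:142388038). Members with lower TE in KO cells had a median leader of 158.5 nt (n = 26), those not called 164 nt (n = 14) and those with higher TE 183 nt (n = 3). Their quartiles, 119 to 232, 128 to 291.5 and 178 to 208 nt, overlapped. The annotated start was not checked against these libraries.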

How the data were processed

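RNA-seq and ribo-seq of N2a cells were deposited by the authors as raw counts per transcript in 8 tables, 1 per assay and pair of conditions, with footprint counts and mRNA counts in separate tables. The submitters' processing notes name cutadapt, HISAT2, Bowtie2, edgeR and the mm10 build, and the study counted 1 transcript per gene. Tables of the authors' own TE results were not used. In the mRNA table of ctrl against KO in DMSO the same column name stands over 2 columns of each genotype, so these were read by group only, and the blocked fit took its libraries from the other tables.

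Each pair was fitted with edgeR 4.0.16 (TMM scaling, quasi-likelihood F test, Benjamini-Hochberg adjustment over all transcripts tested, threshold 0.05) after keeping transcripts over 1 CPM in all libraries of at least 1 condition. The study tested TE with a tool not used here, and TE was tested as the assay by condition interaction, with TMM within each assay. Printed CPM share 1 TMM scaling per assay. Library sizes spread over 669244 to 5285876 for footprints, which limits precision most in ctrl DMSO, where replicate 2 was not analysed here. In simulated data holding 200 transcripts with a true log2 change of 1, the test found 150 for footprints and 147 for TE for Torin1 in KO cells, and 116 and 75 in ctrl cells. For KO against ctrl in DMSO it found 138 for footprints and 71 for TE, and for the interaction 87 and 44. Alternatives were no scaling beyond library size, DESeq2 1.42.0, no filter, a replicate block, all 4 conditions in 1 fit and each library left out.

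The treatment protocol in the labels makes each replicate a different passage of the cells, and the numbers were taken to pair the samples on that ground, although it does not say that ctrl and KO cells of 1 number were handled together. Deviations of same-numbered samples correlated at -0.04 to 0.69 for mRNA and -0.04 to 0.14 for footprints, against -0.54 to 0.38 and -0.14 to 0.12 for other numbers. P-values measure the spread between passages of 1 population per genotype.

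The members and all other gene lists were chosen with earlier results of these data known. Every member could be named. Library values and full statistics were given for members called, up to 10 per comparison with the smallest adjusted p, and for the 3 highest and 3 lowest TE levels; of other lists up to 4 genes with the smallest adjusted p were named. Leaders came from GENCODE M21, matched by transcript identifier, and promoter windows from RefSeq.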

Additional observations from a re-analysis of the deposited data

How the results depend on the processing

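No called value of a named member changed sign under any alternative run. Of the 102 calls of named members, DESeq2 kept 92, no scaling beyond library size 82, no filter 101 and the replicate block 100, and all 4 conditions in 1 fit kept 54 of the 61 for which it was run; refits of these calls with 1 library left out, 839 in all, kept the call in 681; where a call was lost, the cause was not tested. Among members called for mRNA, with Torin1 the 0 in ctrl cells became 1 with DESeq2, 1 with the replicate block, 1 with all 4 conditions and 0 to 1 with a library left out, and the 0 in KO cells became 1 without scaling, 2 with DESeq2, 2 with the replicate block and 0 to 3. For KO against ctrl, the 0 in DMSO became 3 with the replicate block and 1 with all 4 conditions, and the 3 in Torin1 became 9 with the replicate block, 0 with all 4 conditions and 0 to 1. For footprints with a library left out, the 14 called with Torin1 in ctrl cells ranged from 2 to 15 and the 13 for KO against ctrl in Torin1 from 8 to 12. The footprint interaction went from 0 to 4 with DESeq2, 3 with the replicate block and 0 to 1 with a library left out. For TE, the 5 in ctrl cells became 3 with the replicate block and 1 to 10, the 7 for KO against ctrl in Torin1 became 4 to 7, and the interaction became 2 with DESeq2. The replicate block moved no other count of members by over 1.5 times. Shares of all transcripts called by DESeq2, without scaling or with a library left out are not given beside these counts. Footprint depth limits the ctrl DMSO group most, with 2 libraries and 669244 counts in the shallower.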
